A study of Rattus norvegicus with 12 samples.

Results

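The muscle miRs miR-1 and miR-133 were read in rat dorsal root ganglia (DRG) by 4 assays, rno-miR-1, mmu-miR-1, mmu-miR-133a and mmu-miR-133b, which were chosen by name from the 154 miR assays of the deposited Ct table. All 4 gave a value on all 12 arrays, as did each of the 154 miRs. The study kept for its analysis only miRs found in all 12 samples, so a miR missing from the table may have gone undetected. The arrays were TaqMan rodent microRNA cards of adult male Sprague-Dawley rats, and each array held the RNA of a single DRG taken at Day 23 after surgery. Spared nerve injury (SNI) is a partial cut of the sciatic nerve: in Sural-SNI the sural branch was left, with the common peroneal and tibial branches tied and cut, in Tibial-SNI the tibial branch was left and the other two were tied and cut, and in Sham rats the nerve was exposed and no branch was cut. Each of the 3 groups had 4 arrays, 2 for each of the ganglia L3-DRG and L4-DRG, and these carry the numbers replicate 1 and replicate 2. Both ganglia with the same group and number may be of one rat, so p-values measure the spread between arrays, which need not be the spread between rats. A DRG holds sensory neuron bodies, satellite glia, Schwann cells, vessels and connective tissue, and in such bulk samples fewer cells of a type and less RNA per cell cannot be told apart. The label of the tissue was checked by miRs of sensory neurons, of which 2 of the 5 listed were in the table. MiR-182 had a mean Ct of 23.3 in Sham and was rank 5 of the 154 miRs. MiR-183 had a mean Ct of 27.5 and was rank 50.

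MiR-1 and miR-133 are known as muscle miRs. They are made in skeletal and cardiac muscle from shared precursor transcripts, where miR-1 favors differentiation of muscle cells and miR-133 their proliferation. In the rat annotation of RefSeq (GRCr8), the hairpins of Mir1 and Mir133a1 lie on the same strand of chromosome 18 with 2368 bases between them, inside the interval of the gene Mib1. The hairpin of Mir133b lies on chromosome 9, with 3801 bases between it and that of Mir206, a muscle miR of the miR-1 family, and both are inside the same long noncoding RNA gene. The mature sequences are shown because they set which assays can be compared. They are written 5′ to 3′ with the seed (bases 2 to 8, the part that pairs with targets) in capitals, from RefSeq.
rno-miR-1-3p: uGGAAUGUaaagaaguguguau
rno-miR-1b: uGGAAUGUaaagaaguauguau
rno-miR-206-3p: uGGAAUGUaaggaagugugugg
rno-miR-133a-3p: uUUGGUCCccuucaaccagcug
rno-miR-133b-3p: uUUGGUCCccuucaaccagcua

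The first 3 share one seed and the last pair another. Counted from 1 at the 5′ end, rno-miR-1-3p (chr18:2160339-2160360, minus strand) and rno-miR-1b (chr3:187864736-187864757, plus strand) differ by G17A alone. In the same way rno-miR-133a-3p (chr18:2157886-2157907, minus strand) and rno-miR-133b-3p (chr9:30594629-30594650, plus strand) differ by G22A alone. Between rno-miR-1-3p and rno-miR-133a-3p 18 of the 22 bases differ. The sequence that each assay was designed against was not read from a file, so how far the rno-miR-1 and mmu-miR-1 assays read each other's target, or the miR-133 assays each other's, was not tested. MiR-206 itself was not among the assays of the table.

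In Sham DRG, miR-133a was among the miRs with the lowest Ct. The Ct is the PCR cycle at which a well passes the detection threshold, so that each cycle less means a doubling of the miR. The mmu-miR-133a assay had a Ct of 24.6 and 24.4 in the 2 L3-DRG and of 23.9 and 23.7 in the 2 L4-DRG, with a mean of 24.1 ± 0.449 (SD, n = 4). Its mean Ct was rank 7 of the 154 miRs, and it was between rank 6 and rank 12 on the single Sham arrays. The rno-miR-1 assay followed with a Ct of 27.7 ± 0.557 (n = 4) and rank 53, and ranged from rank 40 to 66. The mmu-miR-133b assay had a Ct of 29.6 ± 0.952 (n = 4) and rank 84, and the mmu-miR-1 assay had 30.6 ± 0.926 (n = 4) and rank 109. This order of the 4 Ct values held on each of the 12 arrays, although the Sham ranges of mmu-miR-133b and mmu-miR-1 overlapped between arrays. Ct values of different assays also depend on how well each assay amplifies, so the order is one of Ct, not of the number of molecules.

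**Figure D1:**
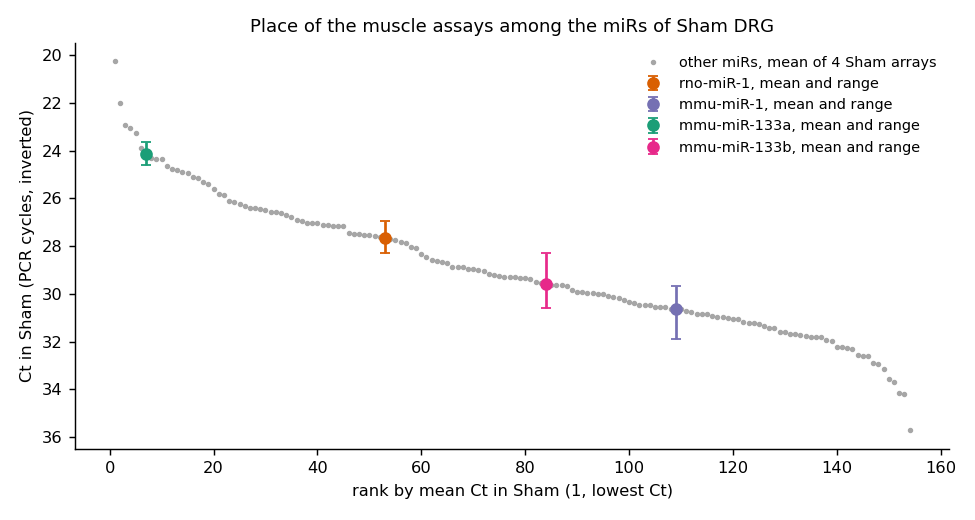
Mean Ct of each of the 154 miRs over the 4 Sham arrays (vertical axis, PCR cycles, inverted so that abundant miRs are at the top) against its rank. The 4 muscle assays are colored, with bars from the lowest to the highest Sham array, and stand at rank 7 (mmu-miR-133a), 53 (rno-miR-1), 84 (mmu-miR-133b) and 109 (mmu-miR-1).

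The Sham levels of L3-DRG and L4-DRG overlapped for all assays but mmu-miR-1. Levels are given from here as −ΔCt, the mean Ct of the reference assays MammU6, snoRNA135 and U87 minus the Ct of the miR, so that a rise of 1 is a doubling. MiR-133a had a −ΔCt of 1.59 and 0.39 in L3-DRG and of 1.45 and 0.48 in L4-DRG for replicates 1 and 2, so the replicate number moved it more than the level did. The rno-miR-1 assay had −2.09 and −2.87 in L3-DRG and −2.38 and −2.80 in L4-DRG. The mmu-miR-133b assay had −4.39 and −4.92 in L3-DRG and −4.43 and −4.16 in L4-DRG. The mmu-miR-1 assay varied least in Sham, with −5.66 and −5.55 in L3-DRG and −5.26 and −5.52 in L4-DRG. Both levels overlapped in Sham for rno-miR-1, mmu-miR-133a and mmu-miR-133b, and for mmu-miR-1 both L4-DRG arrays were above both L3-DRG arrays, by 0.03 at the nearest.

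The replicate numbers differed over the whole table, and the muscle assays followed this in part. Averaged over all miRs, the Ct of an array was between 27.2 and 30.5, with means of 29.9 in replicate 1 and 27.8 in replicate 2. The median miR had a Ct 2.05 higher in replicate 1. MiR-133a differed by −0.23 (24.0 ± 0.949 in replicate 1 and 24.3 ± 0.303 in replicate 2, SD, n = 6 each), and rno-miR-1 by 0.07, at place 6 and place 10 from the lowest of the 154 differences. Without the L4-DRG Tibial-SNI replicate 1 array these differences were 0.13 (place 13) and 0.61 (place 25). The mmu-miR-1 and mmu-miR-133b assays differed by 1.14 and 1.06, and by 1.34 and 1.39 without that array. Among the references the same difference was −0.86 for MammU6, 1.52 for U87 and 3.94 for snoRNA135. The labels do not say what a number stands for, and the part of these differences in the −ΔCt values was not tested beyond the alternatives with other references.

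The assays of one family did not keep a constant distance. The Ct of mmu-miR-1 was above that of rno-miR-1 by 3.16 ± 0.882 (SD, n = 12). On 11 arrays the distance was between 2.06 and 3.99, and on the L4-DRG Tibial-SNI replicate 1 array it was 5.42. The Ct of mmu-miR-133a minus that of mmu-miR-133b was −5.46 ± 0.766 (n = 12), and here the replicate numbers did not overlap. MiR-133a minus miR-133b was between −6.60 and −5.63 on the 6 arrays of replicate 1 and between −5.31 and −4.20 on the 6 arrays of replicate 2. The share of all pairs of miRs that the replicate numbers set apart was not counted, so this cannot be called particular to this pair. A distance between 2 Ct values of the same array needs no reference assay.

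Between families, mmu-miR-1 minus mmu-miR-133b set the Tibial-SNI arrays apart. In Sham the difference was 1.28, 0.63, 0.83 and 1.36 cycles (L3-DRG replicates 1 and 2, then L4-DRG replicates 1 and 2). In Sural-SNI it was 0.67, 0.69, 0.92 and 0.51, and in Tibial-SNI 1.59, 1.71, 1.85 and 1.78. The 4 Tibial-SNI arrays were all above the Sham and the Sural-SNI arrays, that is, miR-133b was higher relative to the mmu-miR-1 assay in Tibial-SNI, also without the L4-DRG replicate 1 array. The means were 1.03 ± 0.348, 0.70 ± 0.170 and 1.73 ± 0.109 (SD, n = 4 each). Of the 6 pairs of muscle assays this pair alone had Tibial-SNI and Sural-SNI values that did not overlap, against 143 of all 11781 pairs of miRs (1.21%), and in 22 pairs (0.187%) the Tibial-SNI values lay to one side of both other groups. The pair was singled out after its values were seen and is given as a description, with no test.

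**Figure D2:**
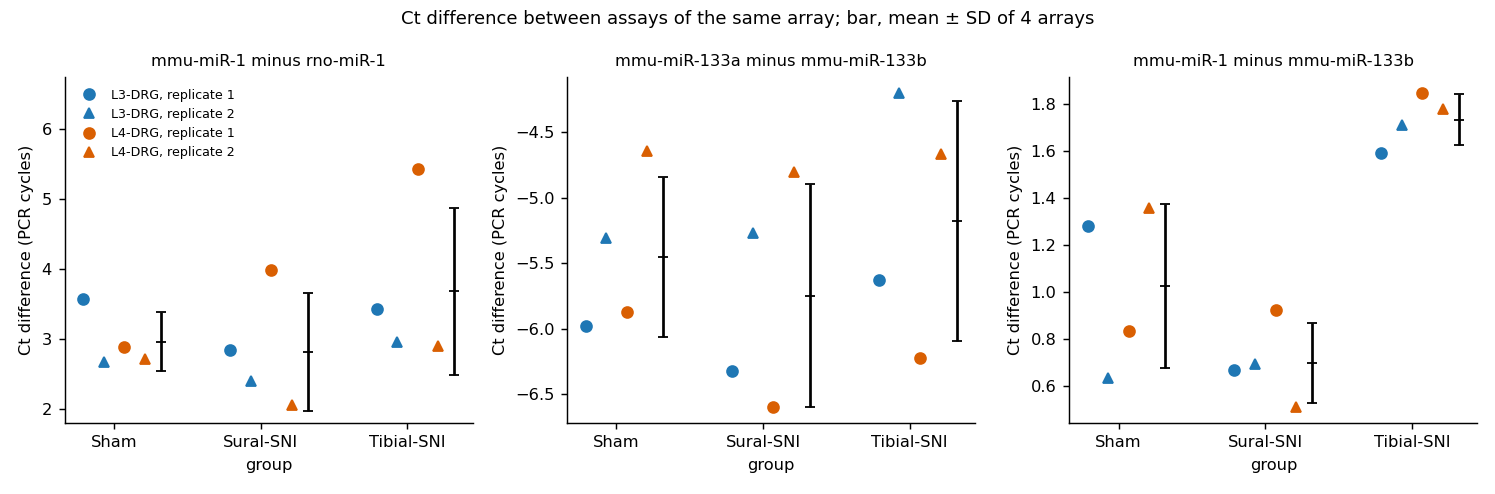
Ct difference in PCR cycles between 2 assays of the same array (vertical axes) by group, 1 point per array, colored by DRG level and shaped by replicate number, with the mean ± SD of 4 arrays beside. For mmu-miR-1 minus rno-miR-1 the L4-DRG Tibial-SNI replicate 1 array stands at 5.42, for mmu-miR-133a minus mmu-miR-133b the triangles of replicate 2 lie above the circles of replicate 1, and for mmu-miR-1 minus mmu-miR-133b the Tibial-SNI arrays (1.59 to 1.85) lie above both other groups.

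After Sural-SNI the 4 muscle assays were below Sham on each array in log2(fold change), the −ΔCt of an SNI array minus that of the Sham array matched to it by ganglion and number. The rno-miR-1 assay had −0.82 and −0.36 in L3-DRG and −0.24 and −0.84 in L4-DRG (replicates 1 and 2). MiR-133a had −0.35 and −0.06 in L3-DRG and −0.54 and −0.87 in L4-DRG. MiR-133b had −0.69 and −0.02 in L3-DRG and −1.26 and −1.03 in L4-DRG. The mmu-miR-1 assay had −0.08 and −0.09 in L3-DRG and −1.34 and −0.18 in L4-DRG, so a single array held most of its difference. All 16 values were thus below 0. Of the 154 miRs, 7 (4.55%) were below 0 on all 4 Sural-SNI arrays, and the 4 muscle assays were among them. The other three, named here because they complete the count, were miR-182, an abundant miR of sensory neurons, miR-217 and miR-383. The 4 assays share their Sham arrays and their references, so the 16 values are not independent.

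The differences of Sural-SNI from Sham were within the spread between arrays in a fit without the replicate number. In a limma model of −ΔCt that took in the 12 arrays and had DRG level as a covariate, the largest was that of miR-133b, −0.75 ± 0.503 on the log2 scale (standard error, n = 4 and 4, adjusted p = 1.00, 95% interval from −1.87 to 0.37). The rno-miR-1 assay differed by −0.56 ± 0.893, miR-133a by −0.46 ± 0.868 and mmu-miR-1 by −0.42 ± 0.501, with the same adjusted p. These standard errors include the differences between replicate numbers, which the model did not take in. Matched by ganglion and number, the mean log2(fold change) was −0.56 ± 0.310 for rno-miR-1 and −0.46 ± 0.340 for miR-133a (SD, n = 4). It was −0.75 ± 0.536 for miR-133b and −0.42 ± 0.615 for mmu-miR-1. Across the alternative limma fits, also with level and number as a block, their adjusted p was 0.895 or more. The median of all miRs was 0.15, on the other side of 0. None of the 154 miRs passed an adjusted p of 0.05 (0.0%), and none had an unadjusted p below it. MiR-133b was also lower on all 4 Sural-SNI arrays (−5.68 to −4.94) than on any Sham array (−4.92 to −4.16), with 0.02 between the nearest arrays. It was the single miR of 154 (0.649%) for which this was so in that direction. With MammU6 alone as the reference 14 of the 16 values were below 0, with snoRNA135 and U87 15, with the mean of all miRs 16, and with the Ct values taken without a reference 10. In the same order, 2, 3, 4 and 0 of the 4 muscle assays were below 0 on all 4 Sural-SNI arrays. Of the 154 miRs, 4 (2.60%), 8 (5.19%), 13 (8.44%) and 1 (0.649%) were.

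**Figure D3:**
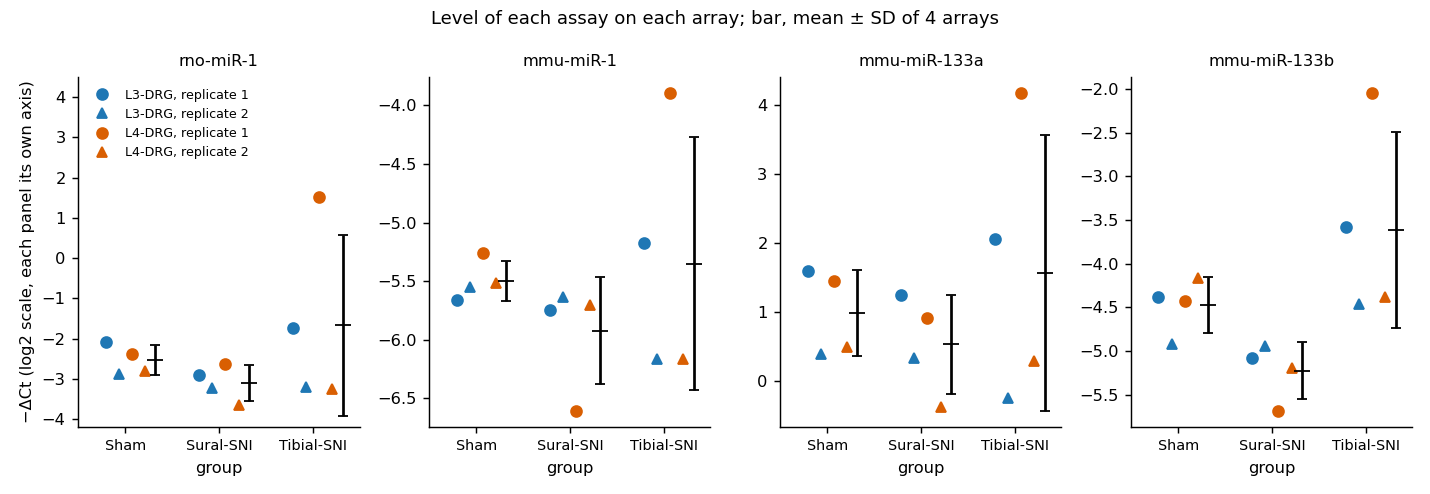
−ΔCt (log2 scale, a separate axis for each assay) on the 12 arrays by group, colored by DRG level and shaped by replicate number, with the mean ± SD of 4 arrays beside. The L4-DRG Tibial-SNI replicate 1 array is the highest for all 4 assays, at 1.53 for rno-miR-1, −3.89 for mmu-miR-1, 4.17 for mmu-miR-133a and −2.05 for mmu-miR-133b.

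After Tibial-SNI a single array stood high for all 4 assays. On the L4-DRG Tibial-SNI replicate 1 array, rno-miR-1 had a log2(fold change) of 3.91, which is 15.01-fold, miR-133a 2.73 (6.62-fold), miR-133b 2.38 (5.21-fold) and mmu-miR-1 1.37 (2.58-fold). Among the 154 miRs of this array these were places 2, 5, 8 and 13 from the highest, while the median miR was at 0.09. On the raw scale miR-133a had a Ct of 22.3 there, rank 2 of the 154 miRs, and rno-miR-1 had 24.9, rank 7, both the lowest Ct of that assay on any array. The Ct of mmu-miR-133b (28.5) and of mmu-miR-1 (30.3) there were within the range of the other arrays. Both were, however, the lowest Ct of that assay among the arrays of replicate 1, where Ct values were higher over the whole table. On the matched L4-DRG Sham replicate 1 array the Ct was 29.8 for mmu-miR-133b and 30.6 for mmu-miR-1.

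The 3 other Tibial-SNI arrays did not share this rise. The rno-miR-1 assay had 0.34 and −0.33 in L3-DRG (replicates 1 and 2) and −0.46 in L4-DRG replicate 2. MiR-133a had 0.45, −0.65 and −0.20 on the same arrays, and mmu-miR-1 had 0.49, −0.62 and −0.65. MiR-133b had 0.80, 0.46 and −0.22. All 4 assays were above 0 on both arrays of replicate 1, and of the 8 values of replicate 2 only that of miR-133b in L3-DRG was. On the L3-DRG replicate 1 array, however, 132 of the 154 miRs were above 0, with a median of 0.63, and rno-miR-1, mmu-miR-1 and mmu-miR-133a were below that median. The L3-DRG and L4-DRG of replicate 1 may be of the same rat.

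**Figure D4:**
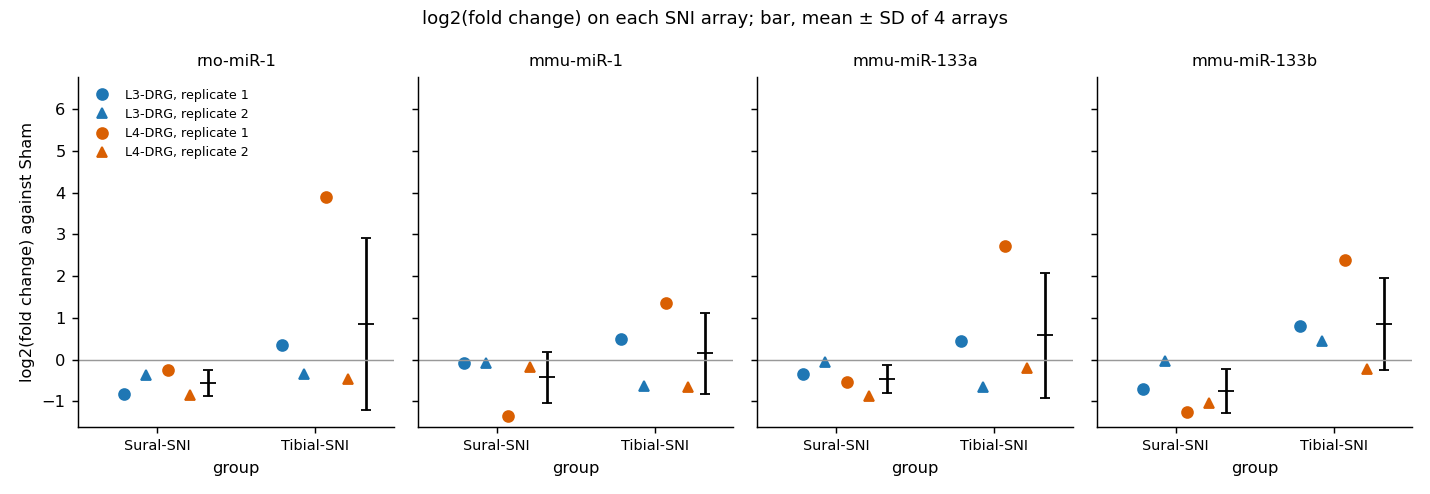
Log2(fold change) against the Sham array with the same ganglion and number (vertical axis, shared by the 4 panels) on the 8 SNI arrays, colored by level and shaped by number, with the mean ± SD of 4 arrays beside. All Sural-SNI points are below 0, and the L4-DRG Tibial-SNI replicate 1 array is the highest point of each panel.

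Against Sham, the Tibial-SNI differences were likewise within the spread between arrays, and that of mmu-miR-1 turned sign when the miRs themselves were averaged as the reference (−0.087) or none was used (−0.26). In the same limma fit miR-133b differed by 0.85 ± 0.503 (standard error, n = 4 and 4, adjusted p = 0.997), rno-miR-1 by 0.86 ± 0.893, miR-133a by 0.58 ± 0.868 and mmu-miR-1 by 0.15 ± 0.501. None of the 154 miRs passed (0.0%), and 1 had an unadjusted p below 0.05. Without the L4-DRG Tibial-SNI replicate 1 array, rno-miR-1 was at −0.25 ± 0.457, miR-133a at −0.35 ± 0.632 and mmu-miR-1 at −0.37 ± 0.379, all with turned sign. MiR-133b remained above Sham without it, at 0.31 ± 0.363. The adjusted p was then 0.892 for all 4.

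Between the SNI groups the means of the muscle assays were higher in Tibial-SNI, with an exception for mmu-miR-1, and none passed the test across all miRs. The mmu-miR-1 difference was below 0 when no reference was used (−0.12) or the L4-DRG Sham replicate 1 array was left out (−0.14). Leaving out that Sham array also took out the SNI arrays matched to it, among them L4-DRG Tibial-SNI replicate 1. The groups differ in which nerve branch was spared. Over the 8 log2(fold change) values, miR-133b was 1.61 ± 0.558 higher (standard error, limma, n = 4 and 4, 95% interval from 0.33 to 2.88, adjusted p = 0.983). The rno-miR-1 assay was 1.43 ± 0.898 higher, miR-133a 1.04 ± 0.679 and mmu-miR-1 0.57 ± 0.528, each with an adjusted p of 0.995. MiR-133b was among the 4 miRs with an unadjusted p below 0.05, and 1 miR of 154 (0.649%), which was not a muscle assay, passed after adjustment. Tibial-SNI and Sural-SNI arrays overlapped for all 4 assays. For miR-133b the overlap was of one array on each side, −0.22 in Tibial-SNI and −0.02 in Sural-SNI. An exact permutation test over the 70 ways to divide the 8 arrays gave p = 0.0571 for miR-133b, 0.143 for rno-miR-1, 0.20 for miR-133a and 0.314 for mmu-miR-1 (two-sided), where 0.0286 is the smallest p it can give. The Sural-SNI and Tibial-SNI arrays of the same ganglion and number share a Sham array. Neither this permutation nor the limma fit above took in that pairing. By the one-tailed unpaired test that the study's methods describe, at its threshold of 0.09, miR-133b passed and the other 3 assays did not. In all, 17 of the 154 miRs passed at this threshold, so passing it does not single out miR-133b.

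The L4-DRG Tibial-SNI replicate 1 array carried most of the difference between the SNI groups for 3 of the assays. Without it the difference was 0.41 ± 0.347 for rno-miR-1, 0.32 ± 0.378 for miR-133a and 0.16 ± 0.465 for mmu-miR-1. For miR-133b it was 1.10 ± 0.418. The adjusted p was 0.976 for all 4 without this array.

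By DRG level, L4-DRG minus L3-DRG of the same group and number was between 1.28 and 3.27 on the Tibial-SNI replicate 1 pair. It was between −0.86 and 0.75 on the other pairs. L4-DRG minus L3-DRG of rno-miR-1 was −0.29 and 0.07 in Sham, 0.29 and −0.41 in Sural-SNI, and 3.27 and −0.06 in Tibial-SNI (replicates 1 and 2). For miR-133a it was −0.15 and 0.09, then −0.33 and −0.72, then 2.12 and 0.54. For miR-133b it was −0.04 and 0.75, then −0.60 and −0.25, then 1.53 and 0.07. For mmu-miR-1 it was 0.40 and 0.03, then −0.86 and −0.07, then 1.28 and 0.00. The Tibial-SNI replicate 1 pair had the highest difference for each of the 4 assays. In Sural-SNI 7 of the 8 differences were below 0, but the share over all miRs was not counted, so this cannot be called particular to the muscle assays.

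Over all 12 arrays, with group as a covariate, L4-DRG was above L3-DRG by 0.48 ± 0.729 for rno-miR-1, 0.26 ± 0.709 for miR-133a, 0.24 ± 0.411 for miR-133b and 0.13 ± 0.409 for mmu-miR-1 (standard error, limma, adjusted p = 0.987 for each). None of the 154 miRs passed (0.0%), and 3 had an unadjusted p below 0.05. An exact sign-flip permutation test over the 6 pairs gave two-sided p between 0.562 and 0.781, where 0.0312 is the smallest it can give. Without the L4-DRG Tibial-SNI replicate 1 array all 4 differences were on the other side of 0, at −0.26, −0.36, −0.12 and −0.22 in the same order.

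The difference between the SNI groups was larger in L4-DRG for each assay, on 2 arrays a side. Tibial-SNI minus Sural-SNI was 0.59 in L3-DRG and 2.26 in L4-DRG for rno-miR-1, and 0.11 and 1.97 for miR-133a. It was 0.99 and 2.22 for miR-133b, and 0.02 and 1.12 for mmu-miR-1. The difference of these differences was tested as an interaction over the 8 SNI arrays, and was 1.67 ± 1.86 for rno-miR-1, 1.86 ± 1.34 for miR-133a, 1.23 ± 1.17 for miR-133b and 1.10 ± 1.12 for mmu-miR-1 (standard error, limma, adjusted p = 0.989 for each). None of the 154 miRs passed (0.0%) and none had an unadjusted p below 0.05. Without the L4-DRG Tibial-SNI replicate 1 array the interaction was −0.51 for rno-miR-1, 0.39 for miR-133a, −0.07 for miR-133b and 0.10 for mmu-miR-1.

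The −ΔCt of the 4 assays was correlated over the arrays. The −ΔCt values of the 6 pairs of muscle assays had a Pearson r from 0.79 to 0.95 over the 12 arrays, with a median of 0.85, where the median over all 11781 pairs of miRs was 0.17 and 90% of pairs were below 0.79. The contrast with the other miRs depended on the reference. With MammU6 alone the muscle pairs had a median r of 0.85 and all pairs 0.91, and for Ct without a reference 0.64 and 0.83, so that the muscle pairs were then the less correlated. These values share references and arrays and are given with no test. The pair of rno-miR-1 and mmu-miR-133a, whose genes are neighbors on chromosome 18, had the highest r, 0.95 (Spearman's rho 0.94). After the mean of each replicate number was subtracted the r was between 0.84 and 0.97. Within replicate 1 it was between 0.88 and 0.99 over 6 arrays.

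Much of this correlation rested on the L4-DRG Tibial-SNI replicate 1 array. Without it the r of rno-miR-1 and mmu-miR-133a was 0.93 (rho 0.92, n = 11), and the r of the 5 other pairs fell to between 0.40 and 0.60, with a median over all 6 of 0.47. Within replicate 2, which does not hold that array, rno-miR-1 and mmu-miR-133a had 0.79, and mmu-miR-1 and mmu-miR-133b had −0.33 (n = 6 each). Without the 2 arrays farthest from the median, which were both Tibial-SNI replicate 1 arrays, the median r was 0.23. MiR-133a and miR-133b, which differ by the last base, had 0.40 without the high array (n = 11), 0.75 when number means were also subtracted, and 0.99 within the 5 other arrays of replicate 1, where rno-miR-1 and mmu-miR-133a had 0.87. With number means subtracted and that array left out the 6 pairs were between 0.50 and 0.83, and the median of all pairs of miRs was 0.18. By level, the median r of the 6 pairs was 0.73 within L3-DRG and 0.86 within L4-DRG, which holds the high array (n = 6 each).

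**Figure D5:**
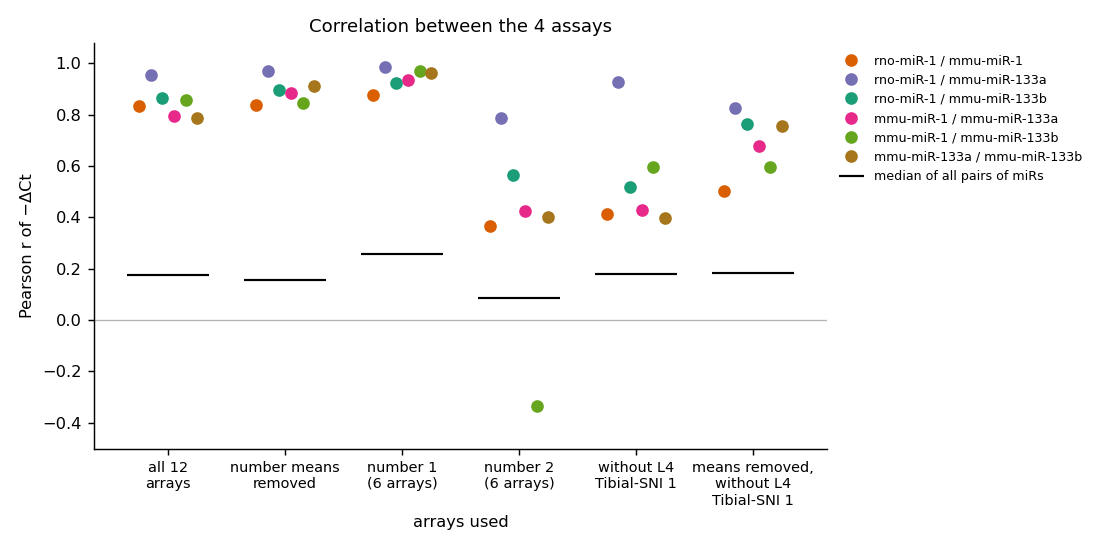
Pearson r of −ΔCt (vertical axis) for the 6 pairs of muscle assays, 1 point per pair, over the arrays named on the horizontal axis, with a line at the median of all pairs of miRs. Over the 12 arrays the points lie between 0.79 and 0.95, and without the L4-DRG Tibial-SNI replicate 1 array only rno-miR-1 with mmu-miR-133a stays near its place (0.93).

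Among the 150 other miRs, the order of those with the pattern most like the mean of the 4 muscle assays changed without the high array. With number means subtracted, the highest Pearson r over 12 arrays were those of miR-126-3p (0.68), an endothelial miR, miR-23b (0.58), miR-155 (0.58), a miR of activated leukocytes, miR-145 (0.56), a miR of smooth muscle, and rno-miR-196c (0.55). Without the L4-DRG Tibial-SNI replicate 1 array they were at place 19, 61, 42, 25 and 63 of the 150. The first place was then that of miR-182, with 0.89 (n = 11) against −0.04 over 12 arrays. The 6 muscle pairs had 0.50 to 0.83 in that setting. Those are between single assays, while 0.89 is with the mean of 4 assays, so they cannot be ranked against each other. At the other end was miR-338-3p, a miR of myelinating glia, with −0.90 over 12 arrays and −0.36 without that array, where miR-130a took the last place with −0.90 (−0.12 over 12 arrays). MiR-130a is named outside the rule, after its values were seen. Other miRs of the same marker lists had unlike values. Over the 12 arrays miR-126-5p was at 0.33, miR-143 at 0.45, and the leukocyte miRs miR-142-3p, miR-150 and miR-223 at −0.04, 0.26 and −0.06. The glial miR-204 was at 0.15, and at 0.50 without the high array. MiR-183 was at −0.25, and at 0.35 without that array.

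Other markers of muscle and of the cells of a DRG were set beside the high array. Of miR-206, miR-208, miR-208b, miR-499, miR-486 and miR-378, miR-486 alone was in the table. MiR-486, found in muscle and in red blood cells, had a log2(fold change) of 1.39 there and of −0.56 to 1.41 on the 7 other SNI arrays, so it was not apart. Both miRs of vascular smooth muscle were above 0 there, miR-143 at 0.96 and miR-145 at 1.05, within or near their range on the other arrays (up to 1.18 and 1.02). Of the 2 endothelial miRs, miR-126-5p was at 0.07, and miR-126-3p was at 0.49, above its highest value on the other arrays (0.39). The 4 leukocyte miRs of the table were at −0.44 to 0.90, of which miR-223 (−0.44) was below its lowest value elsewhere (−0.23). The 3 fibroblast miRs were at 0.03 to 1.04, of which miR-214 (1.04) was above its highest value elsewhere (0.75). Both sensory neuron miRs of the table were below 0, miR-182 at −0.47 and miR-183 at −0.73, within their range on the other arrays. Of the glial miRs, miR-338-3p was at −2.69, below its range of −0.27 to 1.49 elsewhere, and miR-204 was at −0.16. Whether muscle tissue was taken with that DRG was not tested.

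The summed level of each list, as log2 of the sum of 2 to the power of −ΔCt, was compared between the groups. For endothelium it was 2.82 to 3.34 in Sham, 2.63 to 3.27 in Sural-SNI and 2.98 to 3.77 in Tibial-SNI, with the highest value on the L4-DRG Tibial-SNI replicate 1 array. For vascular smooth muscle it was −1.99 to 0.18 in Sham, −2.23 to 0.50 in Sural-SNI and −0.97 to 0.92 in Tibial-SNI, and the high array was place 8 from the top. For leukocytes it was 1.02 to 1.68, 1.23 to 1.78 and 1.06 to 2.04, and for sensory neurons 1.88 to 2.08, 1.02 to 2.01 and 1.40 to 2.59. For glia it was 0.29 to 1.62, 0.46 to 1.03 and 0.61 to 1.26, and for fibroblasts 0.48 to 1.45, 0.79 to 1.41 and 0.96 to 1.63. For miR-486 alone it was −2.77 to −2.0, −3.20 to −0.69 and −3.32 to −0.71. The groups overlapped for all of these lists, and their part in the levels of the muscle assays was not tested.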

How the data were processed

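The data were 12 TaqMan rodent microRNA arrays, 4 each of Sham, Sural-SNI and Tibial-SNI, mapped to group, DRG level and replicate number by their labels. The authors ran 40 cycles and deposited Ct values without normalization, and a linear fold change (ratio) of each SNI array against Sham. No column of sample values with data was left unused (0). A Ct gives no molecule count, and the number of arrays is among the limits of the precision. The table held 6 reference wells, of which the 4 of MammU6 were averaged, and 154 miRs. The 3 reference assays were averaged per array to give −ΔCt and log2(fold change); 100.0% of the 32 deposited fold changes of the muscle assays were within 0.01 on the log2 scale. Tests used limma 3.58.1 in R 4.3.3 (lmFit, eBayes), two-sided, with Benjamini-Hochberg adjustment over all 154 miRs and a threshold of 0.05. The authors' methods give an unpaired test, which set the main comparison of the SNI groups. Other values were computed with Python 3.11.15 and scipy 1.17.1. The fits were tested on simulated data.

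Arrays of the same DRG level and number in different groups deviated together from their group means (r across miRs from 0.46 to 0.81 over 12 pairs; −0.70 to −0.56 for different numbers), so the numbers were taken to pair the arrays and a block of level and number was an alternative. The other alternatives were other references, a limit of 35 on Ct, the mean of both Sham arrays of a ganglion, the deposited fold changes, DRG level as a covariate, 1 fit of all arrays, exact tests and leaving out each array. The miRs named were the members, the references, the marker lists and the 5 most like the members, and any named outside this rule are said to be so. The members and lists were chosen with earlier results of these data known. The alternative of Ct values without a reference was chosen after seeing the data. Sequences are those of RefSeq, build GRCr8, and the build used by the authors is not given in the sources used here.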

Additional observations from a re-analysis of the deposited data

Results flagged for a closer look

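The values of 4 items stood far from the other arrays of their set by Dixon's test of the gap over the range, in 38 sets tested, of which chance would mark about 1 in 20. In L4-DRG the −ΔCt of rno-miR-1 was 1.53 on the Tibial-SNI replicate 1 array, with a gap of 0.756 of the range of 6 arrays. Its L4-DRG minus L3-DRG difference was 3.27 in the same pair, with a gap of 0.810 of the range of 6 pairs. Both are the high array of the report. The mmu-miR-1 assay was low on the L4-DRG Sural-SNI replicate 1 array, with a −ΔCt of −6.61 (gap 0.883 of the range of 4 arrays) and a log2(fold change) of −1.34 (gap 0.923). On this array rno-miR-1 was at −0.24, mmu-miR-133a at −0.54 and mmu-miR-133b at −1.26.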

How the results depend on the processing

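None of the 4 muscle assays passed an adjusted p of 0.05 in any of the 5 limma comparisons under any alternative fit, with an adjusted p of 0.364 or more throughout. At the threshold of the study's methods, by the one-tailed test without moderation, 1 of the 4 passed between the SNI groups (mmu-miR-133b, 1.61, p by that test 0.0198, adjusted 0.496). Of all 154 miRs, 17 passed at that threshold. With the level and replicate number as a block, the paired fit, the adjusted p between the SNI groups was 0.776 for mmu-miR-133b and 0.784 for rno-miR-1, and 0.452 for mmu-miR-133b in Tibial-SNI against Sham; the block changed no call of a muscle assay. It moved the miRs with an unadjusted p below 0.05 from 4 to 6 between the SNI groups, from 0 to 10 for Sural-SNI and from 1 to 15 for Tibial-SNI against Sham, and the 1 adjusted call between the SNI groups to 0.

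Signs turned for mmu-miR-1 without a reference (−0.12 between the SNI groups, −0.26 for Tibial-SNI against Sham) and with the mean of all miRs (−0.087 for Tibial-SNI against Sham). Leaving out each array in turn gave −0.14 to 0.94 for mmu-miR-1 between the SNI groups, where the turned sign was without the L4-DRG Sham replicate 1 array and the SNI arrays matched to it. For Tibial-SNI against Sham it gave −0.25 to 1.55 for rno-miR-1, −0.37 to 0.48 for mmu-miR-1 and −0.35 to 1.22 for mmu-miR-133a. For L4-DRG minus L3-DRG it gave −0.26 to 0.93, −0.22 to 0.35, −0.36 to 0.61 and −0.12 to 0.47 for rno-miR-1, mmu-miR-1, mmu-miR-133a and mmu-miR-133b, and for the interaction −0.51 to 3.85 for rno-miR-1, −0.48 to 2.69 for mmu-miR-1 and −0.19 to 2.65 for mmu-miR-133b. In the interaction, as between the SNI groups, a Sham array was left out together with the SNI arrays matched to it. The lowest interaction of mmu-miR-1 and of mmu-miR-133b was without the L4-DRG Sham replicate 1 array and those SNI arrays. The median r of the muscle assays was 0.64 for Ct without a reference (all pairs 0.83), 0.91 with the mean of all miRs, 0.95 within replicate 1, 0.41 within replicate 2, 0.23 without the 2 arrays farthest from the median, and 0.47 to 0.91 leaving out each array. The cause of these changes was not tested. The Sham ranks and the Ct distances within a family moved by less than their SD.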
